A study of Mus musculus with 20 samples.

Results

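Neat1 and Miat, long non-coding RNAs that stay in the nucleus, were described from the lincRNA gene models deposited with the study, together with the loci catalogued on their opposite strands. Members were chosen by locus identifier: Neat1 (NONMMUG020673), the plus-strand loci NONMMUG020674, NONMMUG020675 and NONMMUG020676 within it, Miat (NONMMUG033401), and the plus-strand locus NONMMUG033402 within Miat. These were 6 of the 29286 loci in the catalogue, with 34 of its 40856 transcripts and 115 of its 86377 exon records. Neat1 and Miat were matched to their names by runs of exon and intron lengths shared with GENCODE M21, 2 runs for Neat1 and 11 for Miat, and NONMMUG033402 shared 1 run with Gm26953. No run could be compared for the 3 loci opposite Neat1, which have 1 or 2 exons.

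The study sequenced RNA that came down with newly replicated DNA, labelled with the thymidine analogue EdU, in 20 libraries. All cells were wild-type. They were mouse embryonic stem cells, or NIH3T3 cells, an immortalised mouse fibroblast line held in 2 mM thymidine for 15 h and then freed from it for 2.5 h to enrich S phase. Each of the 2 cell types had 5 groups of 2 libraries. All groups received EdU for 10 min and fixation in 1% formaldehyde. The no-click control was given DMSO where the others had 10 µM biotin azide, the normal click group had no hydroxyurea, and the click groups named HU, chase and protease carried the hydroxyurea label (4 mM, 4 h), an agent that stalls replication forks. What the chase and the protease step were is not explained in the labels, nor is whether replicate libraries were separate cultures.

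The deposited file holds exon positions on the mm9 build with an empty score field, so it has no value for any library. Depth is therefore unknown, RNA abundance and the contrasts among groups are not analysed here, and no test was made. The models are labelled as mouse NONCODE lincRNAs and carry identifiers of that catalogue. They are an annotation of no sample, so their ends and structures are not measurements of these libraries. The sources used here do not state whether strand was recorded in the libraries. A model below is a catalogued transcript, its length is the sum of its exons, and n counts models, which are not replicates of anything. Positions along Neat1 are distances in the direction of its transcription from the start of its longest model, and positions along Miat are distances from its most used start.

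Neat1 is the architectural RNA of paraspeckles, nuclear bodies that hold splicing-related proteins of the DBHS family. The locus is known to give a short polyadenylated form and a long form from a common promoter, and the long form is the one on which paraspeckles are built. The end of the long form is made without a poly(A) tail, by RNase P cutting ahead of a small tRNA-like RNA, and an A-rich tract at that end pairs with U-rich stretches into a protective triple helix. Miat, also called Gomafu, is a spliced RNA found as nuclear spots in neurons and retina, and copies of the branch point sequence UACUAAC, bound by the splicing factor SF1, are its known feature.

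Neat1 lay on chromosome 19 of mm9 from 5824708 to 5845704 on the minus strand and had 11 models of 572 to 20771 nt, with a median of 2104 nt. NONMMUT033624, the long form, was a single exon of 20771 nt and had the length and structure of GENCODE's Neat1-201. It was the only Neat1 model of 10 kb or more, ranked 6 of all 40856 transcripts by length, and ranked 1 among the 17682 single-exon transcripts. NONMMUT033631, of 3177 nt and also unspliced, began at the same base as the long form and ended 3176 nt downstream of that start. The catalogue therefore held a short and a long unspliced form with 1 start and different ends.

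**Figure D1:**
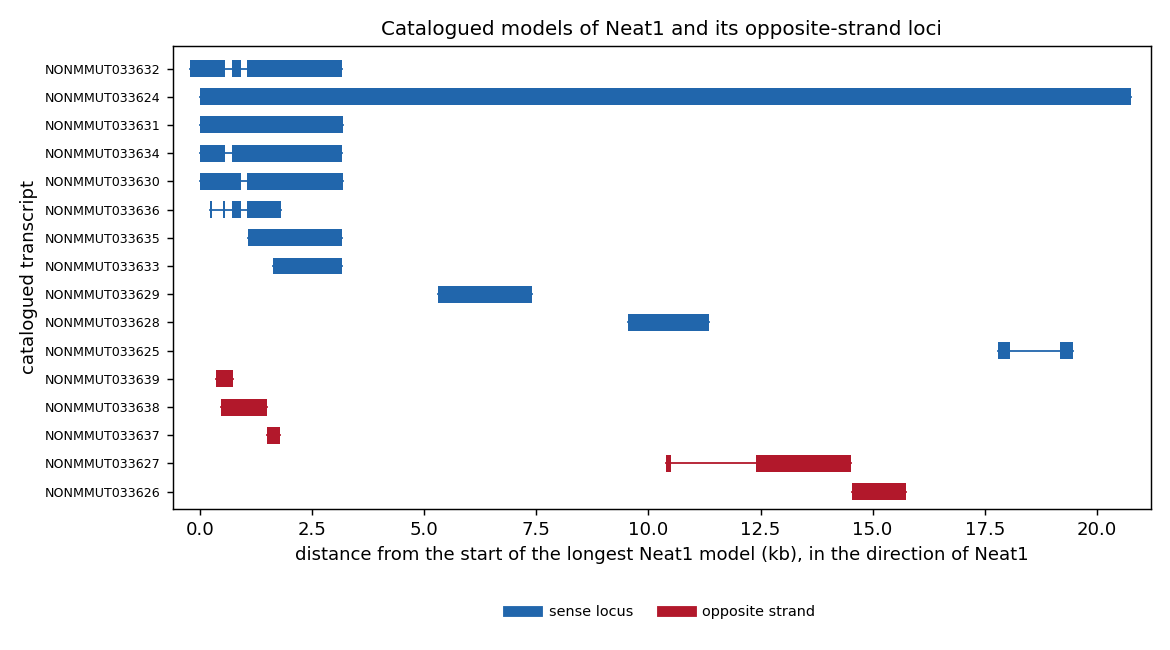
Exons (boxes) and introns (lines) of the 11 catalogued Neat1 models (blue) and the 5 opposite-strand models (red), one model in each row, against distance in kb from the start of the longest Neat1 model. The models crowd into the first part of the locus, and beyond it the long form of 20771 nt is joined by 3 other Neat1 models.

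More Neat1 models shared a 3′ end than a 5′ end. With ends within 50 nt grouped, the 3′ ends formed 6 groups, and 6 of the 11 models ended within 15 nt of each other, from 5842309 to 5842294 (3169 to 3184 nt from the start). The other 5 groups held 1 model each. The 5′ ends formed 8 groups. In the largest of these, 4 models began within 5 nt of each other, from 5845478 to 5845473, among them the long form. NONMMUT033632 began 226 nt upstream of the long form, and the remaining 6 models began between 219 and 17802 nt downstream of it.

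The sequences around these ends are shown because they differ in kind. Both Neat1 ends were read along Neat1-201, the GENCODE M21 transcript with the structure of the long form. The small RNA was read from its own GENCODE transcript, Gm27702. All are printed with GRCm38 coordinates, minus strand, 5′ to 3′. Capitals mark the poly(A) signal AATAAA in the short end, and the A-rich 3′ tract AAAAAGCAAAA with the U-rich run TTTTGCTTTT before it in the long end. In the small RNA capitals mark GGTTCGA, the letters typical of the T loop of tRNAs.
Neat1 short end, chr19:5842294-5842383: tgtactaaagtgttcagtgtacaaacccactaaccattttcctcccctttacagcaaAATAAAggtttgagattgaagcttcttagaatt
Neat1 long end, chr19:5824708-5824807: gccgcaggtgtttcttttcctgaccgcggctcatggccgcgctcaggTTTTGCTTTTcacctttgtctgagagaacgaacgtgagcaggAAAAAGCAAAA
Gm27702, chr19:5824652-5824707: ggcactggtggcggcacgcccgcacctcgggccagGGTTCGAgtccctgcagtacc

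AATAAA, searched on the model's own strand, was present in the last 40 nt of all 6 models with the short end, with its first base 18 to 33 nt before the end. Because the 6 ends vary and the signal does not, the distance was 33 nt in NONMMUT033630, 25 nt in NONMMUT033631 and 18 nt in NONMMUT033635. None of the other 5 Neat1 ends, the long end included, had AATAAA in its last 40 nt. For comparison, 28.6% of 18930 GENCODE lncRNA transcripts had it there, and 1.01% of all 40-nt windows along Neat1-201 held it.

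At the long end the model stopped directly after the A-rich tract, so that AAAAAGCAAAA formed its last letters. Among the 18930 lncRNA transcripts this string, searched on the sense strand, was found anywhere in 77 (0.407%), and 1 transcript, Neat1-201 itself, had it at its very end. Because the string is the last letters of Neat1-201, its place there is given by the choice of string. Gm27702, a 56-nt small RNA in GENCODE, began 1 nt beyond the end of Neat1-201. Malat1, the neighbouring nuclear RNA whose 3′ end is known to be made in the same way, carried the string at bases 6681 to 6691 of its 6983-nt model. The Malat1 model ending closest to the tract stopped 18 nt before its last base, at 5796000, and it was the only Malat1 model to end within 50 nt of that base. The exact end at the tract was thus seen in the Neat1 model and in none of the 29 Malat1 models.

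Between the short and the long end, 3 Neat1 models stood apart from the others in both start and end. NONMMUT033629 was a single exon of 2104 nt from 5300 to 7403 nt, NONMMUT033628 a single exon of 1823 nt from 9538 to 11360 nt, and NONMMUT033625 a 2-exon model of 572 nt from 17802 to 19480 nt. None shared an end with another model, and all their exon bases lay inside the long form. The sequences at 2 of these ends are given, both minus strand on GRCm38. In the first, capitals mark the 20 nt that follow the model's end, and in the second, they mark an alternating TG run of 24 nt.
NONMMUT033628 end and the next 20 nt, chr19:5834098-5834137: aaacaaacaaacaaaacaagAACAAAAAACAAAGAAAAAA
NONMMUT033625 end, chr19:5825998-5826057: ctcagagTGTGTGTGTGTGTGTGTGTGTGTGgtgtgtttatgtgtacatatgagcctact

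The 20 nt after NONMMUT033628 held 17 A, the most of any 20-nt window in Neat1-201. Only 1 of its 20752 windows had as many, against a median of 4. After the other Neat1 ends with sequence beyond them, the next 20 nt held 3 to 9 A. What an A-rich stretch in the DNA contributes to a catalogued end was not tested. A TG run as long as the one before the end of NONMMUT033625 was found in 2.48% of lncRNA transcripts.

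The front of the locus was the part that the models shared. From the most upstream start to the last short 3′ end, 3411 bases, up to 8 models lay over each other and 226 bases (6.63%) were in 1 model only. In the remaining 17586 bases, at most 2 models overlapped and 13087 bases (74.4%) were in the long form alone. GC content was 51.2% in the first 3185 nt of the long form and 46.6% in the rest, beside a median of 46.5% over lncRNA transcripts (quartiles 42.5 and 50.4%). GENCODE also places Gm28006, Gm27505 and Gm27533, which it types as miscellaneous RNA, in this front part. They lie at bases 442 to 563, 732 to 841 and 1042 to 1193 of Neat1-201.

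Splicing of Neat1 was limited to small introns near the start and 1 intron near the long end. Of the 11 models 5 were spliced, with 4 distinct introns. An intron of 166 nt (5844759 to 5844924) and an intron of 143 nt (5844435 to 5844577) were each used by 3 models. NONMMUT033632 used both and otherwise ran to the short 3′ end with 3092 nt. NONMMUT033634 removed only the 166-nt intron and NONMMUT033630 only the 143-nt intron. All 4 arrangements of these 2 introns (neither, the first, the second, both) therefore occurred in models with the short 3′ end. NONMMUT033636, with 4 exons and 1030 nt, used both and an additional intron of 240 nt (5844967 to 5845206). It ended at 1797 nt, before the short end.

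**Figure D2:**
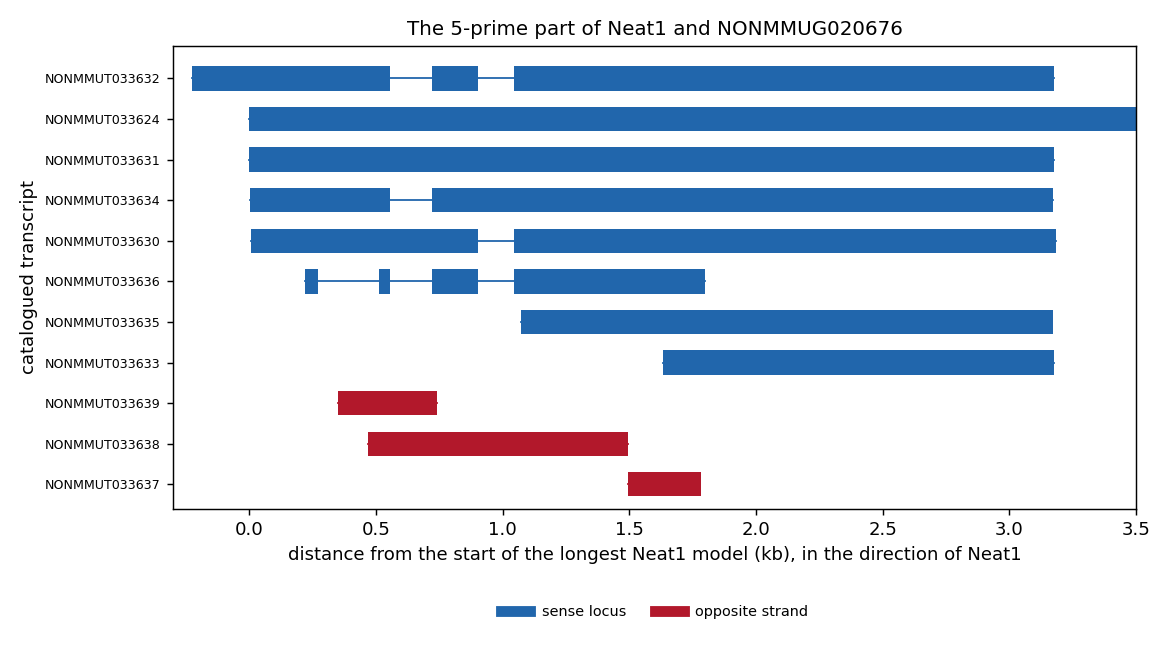
The first 3.5 kb of Neat1, drawn as exons (boxes) and introns (lines) by distance in kb from the start of the longest model. Blue marks the 8 Neat1 models found here and red the 3 models of NONMMUG020676 on the opposite strand. The 166-nt and 143-nt introns lie wholly under the red exons.

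The edges of these introns are printed because the strand of an intron can be read from them. Each line gives 12 nt of exon and 12 nt of intron at the donor, on the strand of the model, with the first 2 intron bases in capitals.
Neat1 240-nt intron, donor: acgtccaggaggGCacaagtttca
Neat1 166-nt intron, donor: tggcccagggtgGTatgtaatttg
Neat1 143-nt intron, donor: cacggcattttgGTaaaggtggag
Neat1 1107-nt intron, donor: tgagggcggcagGTgagcagggct
The 166-nt, 143-nt and 1107-nt introns began with GT and ended with AG, the usual pair. The 240-nt intron, used by NONMMUT033636 alone, began with GC and ended with AG, a known minor variant. None of the 25 introns of the 6 loci was catalogued with the same edges on the opposite strand, which occurred for 37 of 30752 introns (0.120%) in the whole catalogue.

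Opposite Neat1, the catalogue held 3 plus-strand loci, and all of their exon bases lay within Neat1 exons. NONMMUG020676 covered the front, and NONMMUG020674 and NONMMUG020675 followed each other beyond the short 3′ end, under the long form and, in part, under NONMMUT033628. Together they covered 23.1% of the exon bases of Neat1. Over the catalogue 1608 loci (5.49%) overlapped an exon of at least 1 locus on the other strand, and 3 loci (0.0102%) had 3 such partners. These were Neat1, Xist and an unmatched locus on chromosome 13, NONMMUG011629.

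NONMMUG020676 (5843698 to 5845129) had 3 single-exon models of 287, 1026 and 392 nt. NONMMUT033639 ran from 740 to 349 nt along Neat1 and NONMMUT033638 from 1495 to 470 nt. NONMMUT033637 ran from 1780 to 1494 nt, so its end fell at the start of NONMMUT033638. None reached the Neat1 start. The 1432 exon bases of the locus, 42.0% of the front part, overlapped 8 of the 11 Neat1 models. Both edges of the 166-nt and the 143-nt introns and 1 edge of the 240-nt intron lay under them. NONMMUT033638 ran unspliced through both the 166-nt and the 143-nt intron, and NONMMUT033639 through the 166-nt intron. NONMMUT033637 crossed none of the introns, and no model crossed the whole 240-nt intron, of which 163 bases were covered. Their GC content was 55.4%, and none had AATAAA in its last 40 nt.

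NONMMUG020674 (5829739 to 5830930) was a single exon of 1192 nt, and NONMMUG020675 (5830960 to 5835079) a 2-exon model of 2224 nt. The end of the first and the start of the second were 29 bases apart on the same strand. From the start of Neat1 they lay at 15739 to 14548 nt and at 14518 to 10399 nt, and the exon bases under them were 5.68% and 10.6% of those of Neat1. NONMMUG020674 overlapped the long form only. NONMMUG020675 also shared 108 bases, its whole second exon, with NONMMUT033628. Their sequences are shown, plus strand on GRCm38, because each of the 2 models holds AATAAA, in capitals, near its end.
NONMMUG020674 end, chr19:5830871-5830930: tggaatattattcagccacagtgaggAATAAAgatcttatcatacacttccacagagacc
Bases between the models, chr19:5830931-5830959: acaccacgtgaggtgagacagacatgaag
NONMMUG020675 exon 2, chr19:5834972-5835079: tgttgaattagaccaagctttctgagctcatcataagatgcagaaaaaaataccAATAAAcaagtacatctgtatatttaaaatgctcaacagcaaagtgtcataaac

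AATAAA began 34 nt before the end of NONMMUG020674, the only opposite-strand model of 6 with the signal in its last 40 nt. In NONMMUG020675 it began 54 nt before the end. On the plus strand, 2.22% of all 40-nt windows opposite Neat1-201 and 3.48% of all 60-nt windows held it. The intron of NONMMUG020675, 1896 nt long (5833076 to 5834971), began with GT and ended with AG. Its edges are shown in the same form, with capitals for the first 2 or last 2 intron bases.
NONMMUG020675 donor: gttcaccaaacaGTcttgaattag
NONMMUG020675 acceptor: ttcaaaggatAGtgttgaattaga
The same 9 letters, ttgaattag, occurred in both of these 24-nt stretches. In the other 6 introns with sequence, the longest run common to the donor and acceptor stretch was 3 or 4 nt. Whether this repeat bears on the intron was not tested.

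Miat lay on chromosome 5 of mm9 from 112642148 to 112658415 on the minus strand. Its 17 models, of 284 to 9163 nt with a median of 3051 nt, made it the locus with rank 46 of 29286 by number of transcripts (99.8% of loci had fewer). Neat1, with 11, had rank 103 (99.6% had fewer). The 2 loci differed in splicing. Of the Miat models 16 were spliced (94.1%), with 18 distinct introns of 86 to 6180 nt, against 5 of 11 (45.5%) and 4 introns for Neat1. By introns, Miat had rank 48 in the catalogue.

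**Figure D3:**
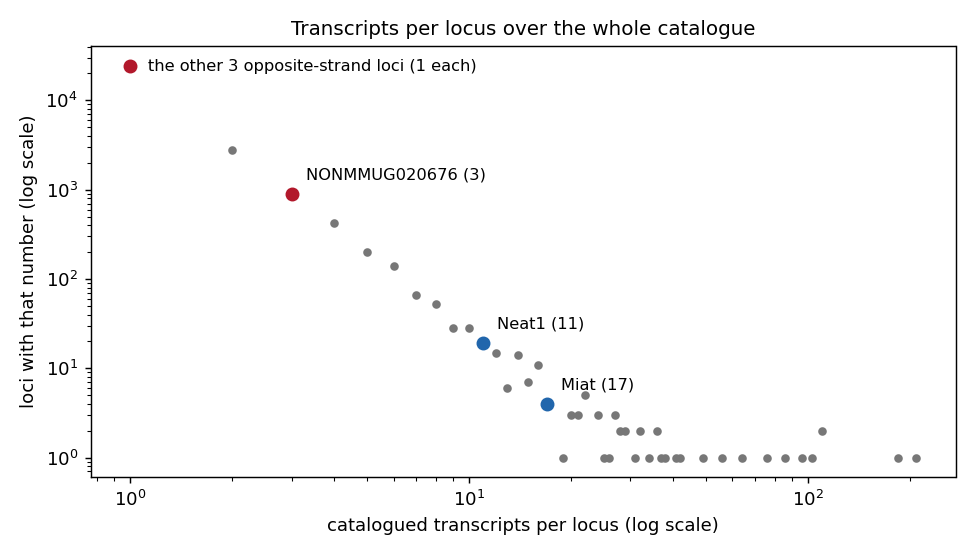
Number of catalogued loci (vertical axis, log scale) by transcripts per locus (horizontal axis, log scale), one grey point for each number that occurs. Blue points mark Neat1 (11) and Miat (17), and red points mark the opposite-strand loci, NONMMUG020676 with 3 transcripts and the other 3 with 1 each.

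Most Miat models shared their first donor site, while their starts varied. With ends within 50 nt grouped, the 5′ ends formed 6 groups, the largest of 10 models between 112657979 and 112657918. Of the 17 models 15 used the same first donor site, and 7 of these began at exactly 112657968. By distance from that shared donor, this is the start RefSeq gives for Miat on GRCm38.p6. Of the other models with that donor, 4 began 11 to 447 nt before this start and 4 began 19 to 335 nt after it. The 2 models without it, NONMMUT053851 and NONMMUT053848, began 536 and 12668 nt after it. The most upstream model, NONMMUT053846, had the structure of GENCODE's Miat-205 and was the longest (9163 nt). The shortest first exon, 5 nt, was in NONMMUT053852.

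The RefSeq promoter window is printed because most models begin in or near it. It covers 250 bases before and 50 after the start on the minus strand of GRCm38. Capitals mark CCGCCC, which is GGGCGG on the other strand, and the start base.
Miat promoter, chr5:112228899-112229198: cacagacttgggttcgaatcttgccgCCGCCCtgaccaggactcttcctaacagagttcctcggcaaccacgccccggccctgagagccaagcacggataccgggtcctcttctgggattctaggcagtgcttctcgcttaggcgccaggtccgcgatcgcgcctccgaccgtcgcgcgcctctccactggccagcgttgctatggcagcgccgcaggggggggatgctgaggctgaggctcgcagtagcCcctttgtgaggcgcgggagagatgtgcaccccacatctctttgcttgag
Both strands were searched. GGGCGG, the GC box, occurred 1 time, 224 bases before the start, and is found in 35.7% of 32851 promoters of the same length. CCAAT and TATAAA were not found in this window, and occur in 37.4% and 13.6% of promoters. GC content was 64.3%, above that of 80.4% of promoters (median 52.7%), with 25 CG dinucleotides against a median of 7.

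The 3′ ends divided the Miat models into long and short forms. The 8 long spliced forms, 8345 to 9163 nt, ran through an exon of 950 nt (112649945 to 112650894) and an exon of 97 nt into a terminal exon that began at 112649255. A further 7 models, 737 to 1414 nt, ended in or at the end of the 950-nt exon. NONMMUT053848 (3051 nt) was a single exon inside the terminal exon, and NONMMUT053865 (284 nt) ended near the front. With ends within 50 nt grouped, there were 6 groups of 3′ ends. The largest held 7 models within 40 nt, from 112642288 to 112642248, and 2 models ended at 112642148.

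In 5 of the short forms the last exon was the same, 157 nt long. It used an acceptor 130 nt upstream of that of the 950-nt exon and ended 27 nt inside it, at 112650868 in each of the 5. NONMMUT053856 instead kept the 950-nt exon whole and ended at its last base, so its end coincides with a donor site of the long forms.

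**Figure D4:**
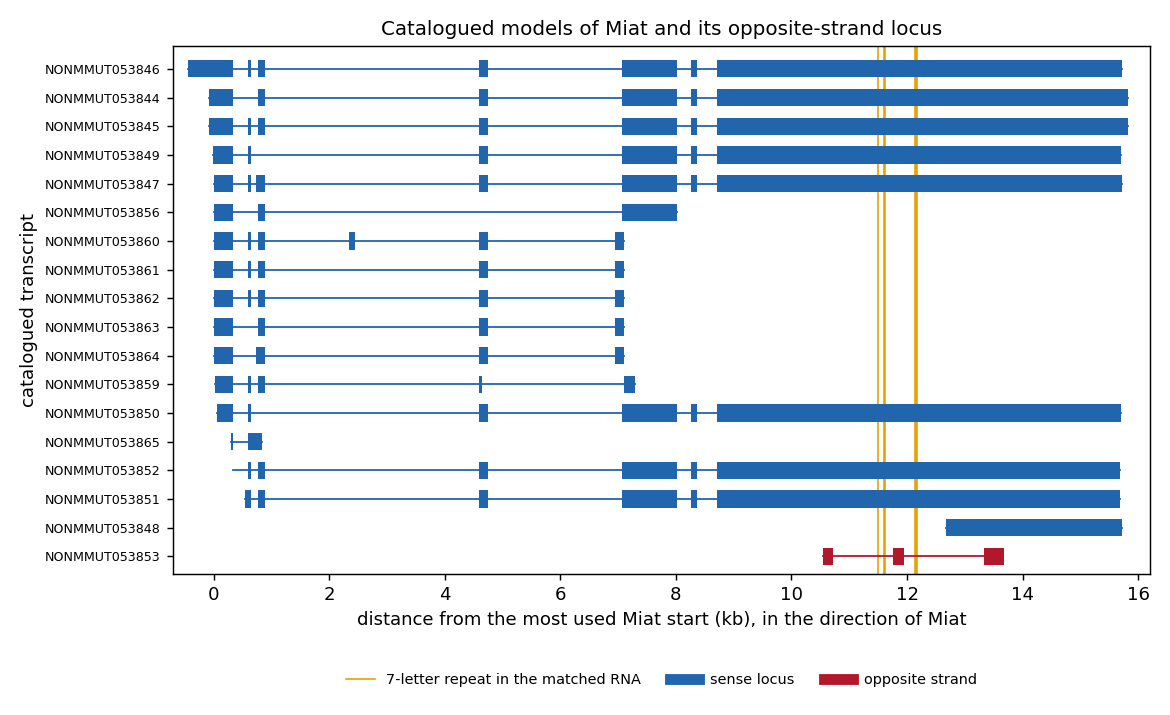
Exons (boxes) and introns (lines) of the 17 Miat models (blue) and NONMMUG033402 on the opposite strand (red), against distance in kb from the most used Miat start. Orange lines mark the 6 copies of the 7-letter repeat described in the text, which fall in the terminal exon of 8 Miat models and between the red exons.

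Most of the variety came from the small exons between the first exon and the 950-nt exon. In the 14 models that join these regions, 11 arrangements were found, 8 of them in 1 model and none in more than 2. The first small exon was 56 nt in 5 models, 48 nt in 4, 52 nt in 1 and absent in 4, through a donor shift of 8 nt or an acceptor shift of 4 nt. The next was 124 nt in 10 models and 160 nt in 2, an acceptor shift of 36 nt, and was absent in 2. Another, of 103 nt, was in NONMMUT053860 only. The last was 149 nt in 12 models and 48 nt in 1, a donor shift of 101 nt, and was absent in 1. The 3 commonest arrangements, 48-124-149, 56-124-149 and 124-149, each occurred in 1 long and 1 short form. The choice among small exons and the choice of 3′ end were thus both found in more than 1 combination.

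The end of the terminal exon is printed with capitals for ATTAAA, the commonest variant of the poly(A) signal.
Miat end, chr5:112213228-112213317 (minus strand, GRCm38): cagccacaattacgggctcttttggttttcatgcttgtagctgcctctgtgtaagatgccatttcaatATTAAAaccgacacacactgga
AATAAA was in none of the last 40 nt of the 7 Miat models that end from 112642288 to 112642248. ATTAAA was there in 5, with its first base 10 to 22 nt before the end, and is found in the last 40 nt of 10.4% of lncRNA transcripts. The 5 ends share the same copy of ATTAAA and are not 5 separate cases. The 2 models that end at 112642288, NONMMUT053851 and NONMMUT053852, stop before it. Sequence at 112642148 and at the ends in the 950-nt exon was not analysed here.

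TACTAAC, the DNA letters of the branch point sequence, was searched on the sense strand and found 6 times in Miat-205. The copies lay in 2 clusters of 3, shown here in capitals on the minus strand of GRCm38.
Miat repeats 1 to 3, chr5:112217309-112217460: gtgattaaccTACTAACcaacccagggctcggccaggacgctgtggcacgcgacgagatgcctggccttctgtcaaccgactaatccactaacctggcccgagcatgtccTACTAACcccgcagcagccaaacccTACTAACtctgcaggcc
Miat repeats 4 to 6, chr5:112216752-112216812: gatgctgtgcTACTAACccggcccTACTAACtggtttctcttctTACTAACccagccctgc
They began at bases 4941, 5041 and 5066, and at 5589, 5603 and 5623, all in the terminal exon. In consequence 8 of the 17 Miat models, the long spliced forms, held all 6 copies, and 9 held none. NONMMUT053848, which lies in the terminal exon, starts downstream of the last copy. The start, the 3′ end and the exons present thus together separated models with and without the repeats.

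Such a number was rare among lncRNAs. TACTAAC was searched as a known feature of Miat, so a high count in Miat follows from that choice. Of the 18930 GENCODE lncRNA transcripts 3.78% had at least 1 copy and 3 had 6, the highest number, namely Miat-201, Miat-205 and a transcript of AC154442.1. Of the 223 transcripts of 5 kb or more 18.4% had at least 1 copy, and the 2 with 6 copies were both Miat. Neat1-201, more than 20 kb long, had 1 copy, at base 19014, and Malat1-201 had 0. Per kb of RNA this was 0.655 in Miat-205 and 0.0481 in Neat1-201. Miat was not the densest, since the AC154442.1 transcript held its 6 copies in 1389 nt. The limit of 5 kb leaves that transcript out. The shorter core ACTAAC, known as the recognition element of the QKI family of RNA-binding proteins, occurred 11 times in Miat-205. These include the 6 copies of TACTAAC, which contains it, and its count in other lncRNAs is not given here. A match describes the letters and does not show that a protein binds there.

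**Figure D5:**
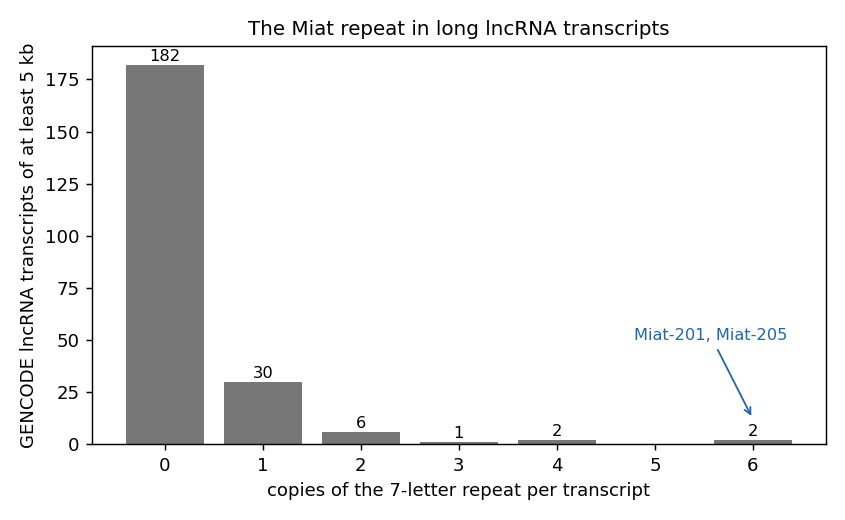
Number of GENCODE lncRNA transcripts of at least 5 kb (vertical axis) by copies of the 7-letter Miat repeat (horizontal axis), and each bar carries its number. Of the 223 transcripts 182 have 0 copies, and the 2 with 6 copies are Miat-201 and Miat-205.

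NONMMUG033402 (112644299 to 112647424, plus strand) was opposite the terminal exon of Miat. Its single model of 718 nt had 3 exons and ran from 13669 to 10544 nt along Miat, with its start 86.4% of the way along Miat. All 718 exon bases lay in Miat exons, 7.42% of the exon bases of Miat. It shared all of them with the 8 long spliced forms and 346 with NONMMUT053848, and none with the other 8 models. The locus spanned all 6 TACTAAC copies, but the copies fell in its 2 introns and none in its exons. Its middle exon lies between the 2 clusters of repeats and is shown for that reason, plus strand on GRCm38.
NONMMUG033402 exon 2, chr5:112217008-112217197: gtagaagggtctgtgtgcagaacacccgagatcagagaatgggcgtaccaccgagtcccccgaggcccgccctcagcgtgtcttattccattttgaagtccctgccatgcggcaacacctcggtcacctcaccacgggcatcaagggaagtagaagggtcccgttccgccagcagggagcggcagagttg
NONMMUG033402 1025-nt intron, donor: gcggcagagttgGTgagtctctta
NONMMUG033402 1383-nt intron, donor: cagaccagaaagGCaaacattagt
Capitals in the donor lines mark the first 2 intron bases. The 1025-nt intron (112646218 to 112647242) was GT to AG, and the 1383-nt intron (112644645 to 112646027) GC to AG. Over the 7 introns of the members whose sequence could be read, 5 were GT to AG and 2 GC to AG, 1 of these in Neat1 and 1 opposite Miat. No intron of the 18 of Miat itself was read.

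Each of the 4 opposite-strand loci lay wholly inside its partner's exons. For those opposite Neat1 this follows from their place within the locus, since its merged exons fill its whole span of 20997 bases. Of all 830 overlapping pairs in the catalogue 142 (17.1%) had 1 locus wholly inside, with a median of 61.2% of the smaller locus shared. Among the named lncRNAs used for comparison, Malat1 had 1 opposite-strand locus, NONMMUG020672, with 4 models and 5315 exon bases, all inside Malat1 exons and 69.1% of them. Unlike the members, this pair had 1 intron catalogued with the same edges on both strands. The share of exon bases under an opposite-strand locus was 56.6% for Xist, 34.7% for Tsix, 23.1% for Neat1, 7.42% for Miat, 6.77% for Meg3, and 0 for H19, Gas5 and Snhg1. Kcnq1ot1 and Airn had no match. Matching by runs of intron, exon and intron cannot name an unspliced model, so this does not show that they are absent from the catalogue. The strand of a model with 1 exon cannot be checked from splice sites, which applies to NONMMUG020674 and NONMMUG020676, and whether these loci are transcribed in the study's cells was not tested.

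No other locus overlapped any of the 6. The nearest to Neat1 were Malat1 (NONMMUG020671, 29 models), which lay 21.9 kb downstream on the same strand, and NONMMUG020679, 15.3 kb upstream. The nearest to Miat were NONMMUG033400, matched to 1700028D13Rik, 3125 bp downstream on the opposite strand, and NONMMUG033406, 137.8 kb upstream.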

How the data were processed

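RNA from EdU-labelled DNA was sequenced in 20 libraries, 2 in each of 10 groups, grouped by their titles. The deposited file gives exon start and end positions (1-based), their strand, and names of loci, transcripts and exons. Its score field is empty in every line, so depth and precision per library are unknown, the planned comparison of libraries was not run, and 0 table columns were left out. Build mm9, TopHat2 2.0.8 and Cufflinks 2.1.1 are named per the submitters' processing notes, without their roles. The selection of models by the authors is not given in the sources.

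Members and lists were chosen with earlier results of these data known. The rule for names covered all 6 members, their transcripts singly or in groups by length and end, nearest and overlapping loci, and 9 known lncRNAs. Ends within 50 nt were grouped, and opposite-strand overlap needed 1 shared exon base. Neat1 and Miat loci were matched to GENCODE M21 (GRCm38) by runs of intron, exon and intron lengths, and 6 models by identical structure, Malat1 by its single exon. Coordinates were never converted. Sequence at a model's position was read at the same distance along the matched GENCODE transcript, and mm9 sequence was not used here. Letters could differ between builds. Promoters are RefSeq windows (GRCm38.p6). Motifs and sequence comparisons were chosen after the file was seen. Overlap, motif and end counting were tested on simulated data. Python 3.11.15, numpy 2.4.6, pandas 2.3.3 and matplotlib 3.10.9 were used.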

Additional observations from a re-analysis of the deposited data

How the results depend on the processing

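Of 34 alternatives to 27 results, 26 gave a count or percentile within 1.5 times the reported value and 8 did not. Some of the 26 were bound to stay the same, as given below, so the tally is not a measure of robustness. Taken base by base, the 3′ ends of Neat1 numbered 10 in place of 6, and the 5′ ends and the 3′ ends of Miat 10 each in place of 6. With whole spans in place of exons, the shared bases rose from 2224 to 4120 for NONMMUG020675 and from 718 to 3126 for NONMMUG033402, since introns are then included. NONMMUG020676 kept 1 of its 3 transcripts at a minimum of 500 nt. Among alternatives chosen after the data were seen, accepting ATTAAA beside AATAAA raised the ends with a signal from 7 to 12, and the shorter ACTAAC raised the count in Miat-205 from 6 to 11. Gaps under 30 nt, a limit of 5 kb for long models, 100 shared bases, grouping within 200 nt and spliced loci only changed no count or percentile by more than 1.5 times. No intron of the members was under 30 nt, so that limit could change nothing. The percentiles were too close to their upper limit to rise by 1.5 times. Whole spans equal exons for NONMMUG020674 and NONMMUG020676, which have no introns. No paired analysis was possible because the file holds no value for any library. No depth limit can be given for the same reason.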
